A study of Mus musculus with 9 samples.

Results

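The genes described here are 37 transcripts that mark neurons, glia and neuroendocrine cells, taken by name from a table of 27179 genes. By the roles they are best known for, 13 are neuroendocrine or secretory granule genes, 16 are general neuronal genes, 6 belong to autonomic neurons and 2 to glia. They were followed in pneumospheres, spheres that form when cells of the dissociated embryonic mouse lung are kept in suspension. Of the 37, 31 had enough reads to be tested and 6 did not, and the 6 are given by their counts.

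The study asked how transcripts change while pneumospheres are passaged. All groups were C57/B6 mouse embryonic lung taken at E11.5, with no treatment and no genotype named beyond the strain. The dissociated cells stood for an hour on ordinary plastic, where mesenchymal cells attach, and the cells still in suspension were cultured on low-attachment plates with B27, basic FGF, EGF and heparin. The groups differ only in days of culture (day 3, day 7 and day 10, with 3 libraries each), and the spheres were dissociated and replated on days 3 and 7. No untreated lung and no freshly isolated cells are among these libraries, so day 3 is the earliest state available, and nothing in the labels says whether libraries of the same day are separate cultures or litters. The p-values here measure no more than the spread among these libraries, which may be technical.

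The embryonic lung is innervated by neural crest cells that migrate along the vagus nerve and the foregut, form small ganglia beside the airways and give rise to the intrinsic neurons of the lung and to their glia. Such neurons are autonomic: their fate depends on transcription factors that include Phox2a and Hand2, and they can make acetylcholine, noradrenaline or peptides such as VIP. Pulmonary neuroendocrine cells are a separate, rare type of airway epithelial cell, and Insm1 is among the factors that specify them. They share much of their secretory machinery (chromogranins, secretogranins, synaptophysin) with neurons, so many granule genes mark either type.

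Library totals ran from 20716878 to 30466712 counts. Levels are CPM, counts scaled to a common library total after TMM normalisation, a correction for library composition, and are given as mean ± SD over the 3 libraries of a day. A gene without reads could still have had up to 3 counts, a floor of 0.0985 to 0.145 CPM depending on the library. The floor is scaled by the raw library total, without the TMM correction of the levels, so it is approximate beside them. This floor and the counting intervals below cover counting error only. Differences between days are log2 fold changes from edgeR's quasi-likelihood test, with their standard error (SE) and a Benjamini-Hochberg adjusted p over all 14940 genes tested. A gene was called at an adjusted p under 0.05.

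Most of the tested genes fell, in each of the 4 classes. Between day 3 and day 7, 25 of the 31 fell and 0 rose, where 19.0% of all genes tested were called lower and 22.8% higher. Between day 3 and day 10, 27 fell and 1 rose, where 27.2% of all genes tested were called lower and 29.5% higher. Their median log2 change was -2.23 by day 7 and -3.83 by day 10, against 0.00 for all genes tested in both comparisons. Both comparisons use the same day 3 libraries. All 3 later libraries lay below all 3 day 3 libraries for 25 members on day 7, where 29.5% of all genes did so, and for 27 members on day 10, where 31.9% did. All 3 lay above day 3 for 1 member on day 7 (30.5% of all genes) and for 0 on day 10 (32.5%). Of the 31, 5 genes (Calca, Chgb, Insm1, Dbh and Fabp7) had too few reads in later libraries to pass the filter on low counts without those of day 3, so they could hardly enter the test except as falling genes. These counts and medians therefore describe the tested genes and are no independent support for a fall. In bulk RNA, fewer cells of a type and less RNA per cell cannot be told apart.

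By its median, the neuroendocrine and granule class kept a larger share of its day 3 level than the other classes, which lay close together. On day 10 the median member stood at 5.5% of its day 3 level among the 16 neuronal genes, 4.69% among the 5 tested autonomic genes and 4.32% among the 2 glial genes. The 8 tested neuroendocrine and granule genes kept a median of 25.4%, with a range of 1.75% to 283%. No test of this difference between classes was made, and it depends on the genes chosen. In the further lists given below, the median log2 changes by day 10 were -1.59 for neuronal and -1.31 for neuroendocrine genes. They were -2.91 for autonomic and -4.56 for glial and crest genes. Summed over the 16 neuronal genes, the libraries held 227, 165 and 165 CPM on day 3, then 43.9, 38.5 and 27.7 CPM on day 7, and 9.42, 12 and 10.9 CPM on day 10. The 13 neuroendocrine and granule genes summed to 47.1, 37.3 and 41.6 CPM on day 3, to 14.3, 18.7 and 14.5 CPM on day 7, and to 10.7, 12.8 and 6.56 CPM on day 10. Most of this sum on day 3 is Uchl1 (23.5, 19.1 and 23.4 CPM), which also marks neurons. No library of a later day reached the lowest day 3 library in either sum.

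**Figure D1:**
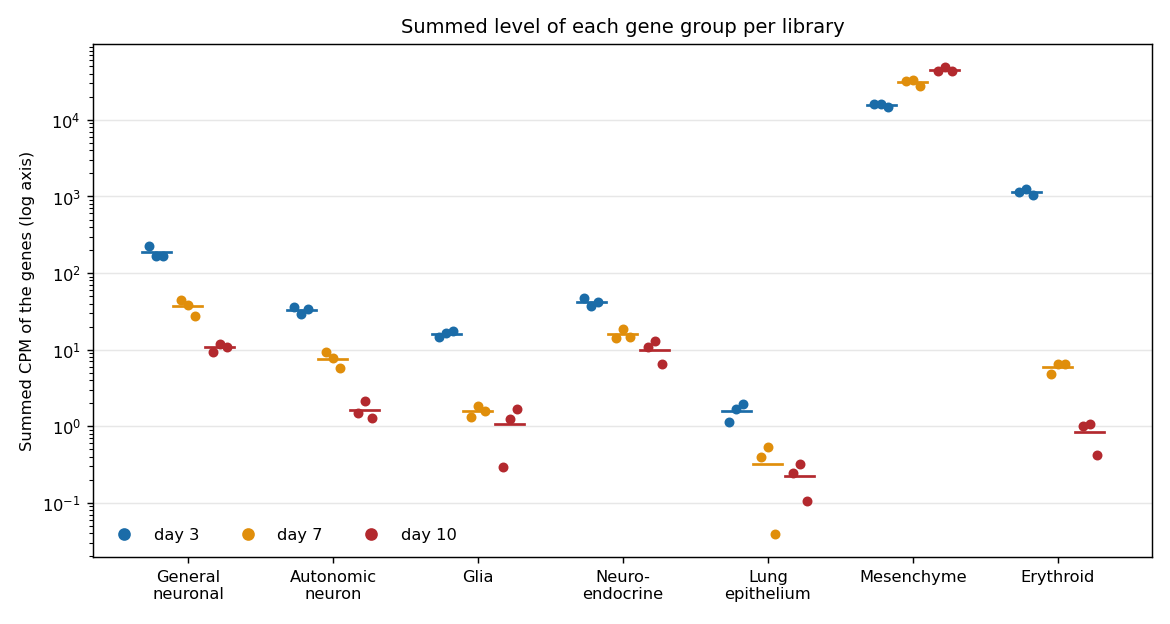
Summed level in CPM (log axis) of the 4 classes of genes, and of markers of lung epithelium, mesenchyme and erythroid cells, in each of the 9 libraries; each point is a library, colours are days and dashes are the means of a day. The neuronal sum falls from 165 to 227 CPM on day 3 to 9.42 to 12 CPM on day 10, the neuroendocrine sum from 37.3 to 47.1 CPM to 6.56 to 12.8 CPM, while the mesenchymal sum rises from at most 16364 to at least 43119 CPM.

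Markers of other cells moved over the same days. The 10 mesenchymal genes summed to 14613 to 16364 CPM on day 3 and to 43119 to 48643 CPM on day 10, and most of this sum is collagen. Of the 10, 8 rose and 2 fell by day 10, where 29.5% of all genes tested were called higher and 27.2% lower. Tbx5, a lung mesenchyme factor, had the lowest change of the 10 (48.7 to 6.96 CPM, -2.81 ± 0.11). The 7 erythroid genes summed to 1054 to 1257 CPM on day 3 and to 0.423 to 1.08 CPM on day 10. Their part in the results below was not tested. The 10 genes of lung epithelium never summed to more than 1.94 CPM in a library, and Nkx2-1, Foxa1 and Shh had 0 counts in all 9. Epcam, an adhesion protein of epithelia and the only tested gene of that list, had 12, 12 and 19 reads on day 3 and 3, 3 and 2 on day 10 (-2.39 ± 0.57, edgeR adjusted p = 0.00486). Epithelial transcripts, those of the tissue that pulmonary neuroendocrine cells belong to, were thus few on day 3 and fewer later.

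Cartpt, the precursor of the CART peptides made by many autonomic and enteric neurons, had the largest fitted fall of the 37. Its day 3 libraries held 26.6, 12 and 13.9 CPM, its day 7 libraries 1.38, 0.411 and 0.741 CPM, and its day 10 libraries 0, 0.16 and 0 CPM. The days did not overlap, and the only 4 reads of day 10 were in replicate 2. The log2 change was -4.33 ± 0.51 (SE) by day 7 (edgeR, adjusted p = 0.000176) and -8.20 ± 0.74 by day 10 (adjusted p = 1.88e-05). The size of the day 10 change rests on those 4 reads and ran from -7.55 to -11.78 over the 16 alternative settings.

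Nap1l2, a histone chaperone of the nucleosome assembly family made mostly in neurons (X chromosome, 103184176 to 103186653), fell almost entirely in the first step. It stood at 24.9, 23.5 and 28.3 CPM on day 3, at 0.526, 0.576 and 1.25 CPM on day 7 and at 0.149, 0.24 and 0.282 CPM on day 10. The lowest day 3 library was far above the highest later one. Its log2 change was -5.03 ± 0.28 by day 7 (edgeR, adjusted p = 1.47e-06) and a further -1.73 ± 0.41 from day 7 to day 10 (adjusted p = 0.0307). The second call was lost in 8 of 16 alternative settings. Among them were omissions of day 3 replicate 1 or 2, day 7 replicate 2 or 3, or day 10 replicate 1 or 2 (-1.24 to -1.90, adjusted p 0.0516 to 0.0678). The others were only the compared days (-1.75, adjusted p = 0.109) and omission of both day 3 replicate 2 and day 10 replicate 3 (-1.94, adjusted p = 0.06). The fall of the first step was the larger by 3.30 ± 0.64 on the log2 scale (adjusted p = 0.0125). This difference between the steps was called under each of the 15 alternative settings it was fitted with. The steps, day 3 to day 7 and day 7 to day 10, differ in length, and no change per day was tested.

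The RNA-binding proteins Elavl3 and Elavl4 (HuC and HuD), which stabilise neuronal mRNAs, fell in both steps. Elavl4 had 17.3, 13.2 and 12.8 CPM on day 3, 2.20, 1.60 and 1.33 CPM on day 7 and 0.198, 0.36 and 0.212 CPM on day 10, with no overlap between any pair of days. It changed by -3.07 ± 0.23 on the log2 scale by day 7 (edgeR, adjusted p = 9.29e-06) and by -2.71 ± 0.32 from day 7 to day 10 (adjusted p = 0.00317). Elavl3 went from 7.35 ± 1.60 CPM to 0.77 ± 0.333 CPM and then to 0.0635 ± 0.0603 CPM, with 5 reads left on day 10.

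Growth cone and microtubule genes were also lower by day 10. Gap43, a protein of growing axon tips, held 22.6, 15.7 and 17.5 CPM on day 3, 2.80, 2.26 and 2.69 CPM on day 7 and 0, 0.40 and 0.212 CPM on day 10. The days were again separate, with a change of -2.84 ± 0.32 in the first step (edgeR, adjusted p = 0.000113) and of -3.55 ± 0.46 in the second (adjusted p = 0.00379). Stmn2, a microtubule regulator of growing axons, stood at 31.3, 18.7 and 21.5 CPM on day 3 and at 4.90, 2.22 and 3.82 CPM on day 7. On day 10 replicate 2 kept 0.84 CPM while replicates 1 and 3 had 0.0496 and 0.0706 CPM (-6.17 ± 0.63 against day 3, adjusted p = 3.77e-05). Its relative Stmn3 fell from 2.57 to 0.313 CPM, and Dcx, the doublecortin of migrating neurons, from 7.64 to 1.15 CPM (day 10 against day 3, -2.72 ± 0.31, adjusted p = 5.74e-05).

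Tubb3, the neuronal beta tubulin, fell from 25.5 ± 5.73 CPM on day 3 to 3.75 ± 0.913 CPM on day 7 and stood at 2.18 ± 0.572 CPM on day 10. Its second change of -0.80 ± 0.26 was not called (edgeR, adjusted p = 0.0822), and the steps differed by 1.96 ± 0.43 (adjusted p = 0.023). That difference was lost without day 7 replicate 2 or without day 7 replicate 3 (adjusted p up to 0.0951).

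**Figure D2:**
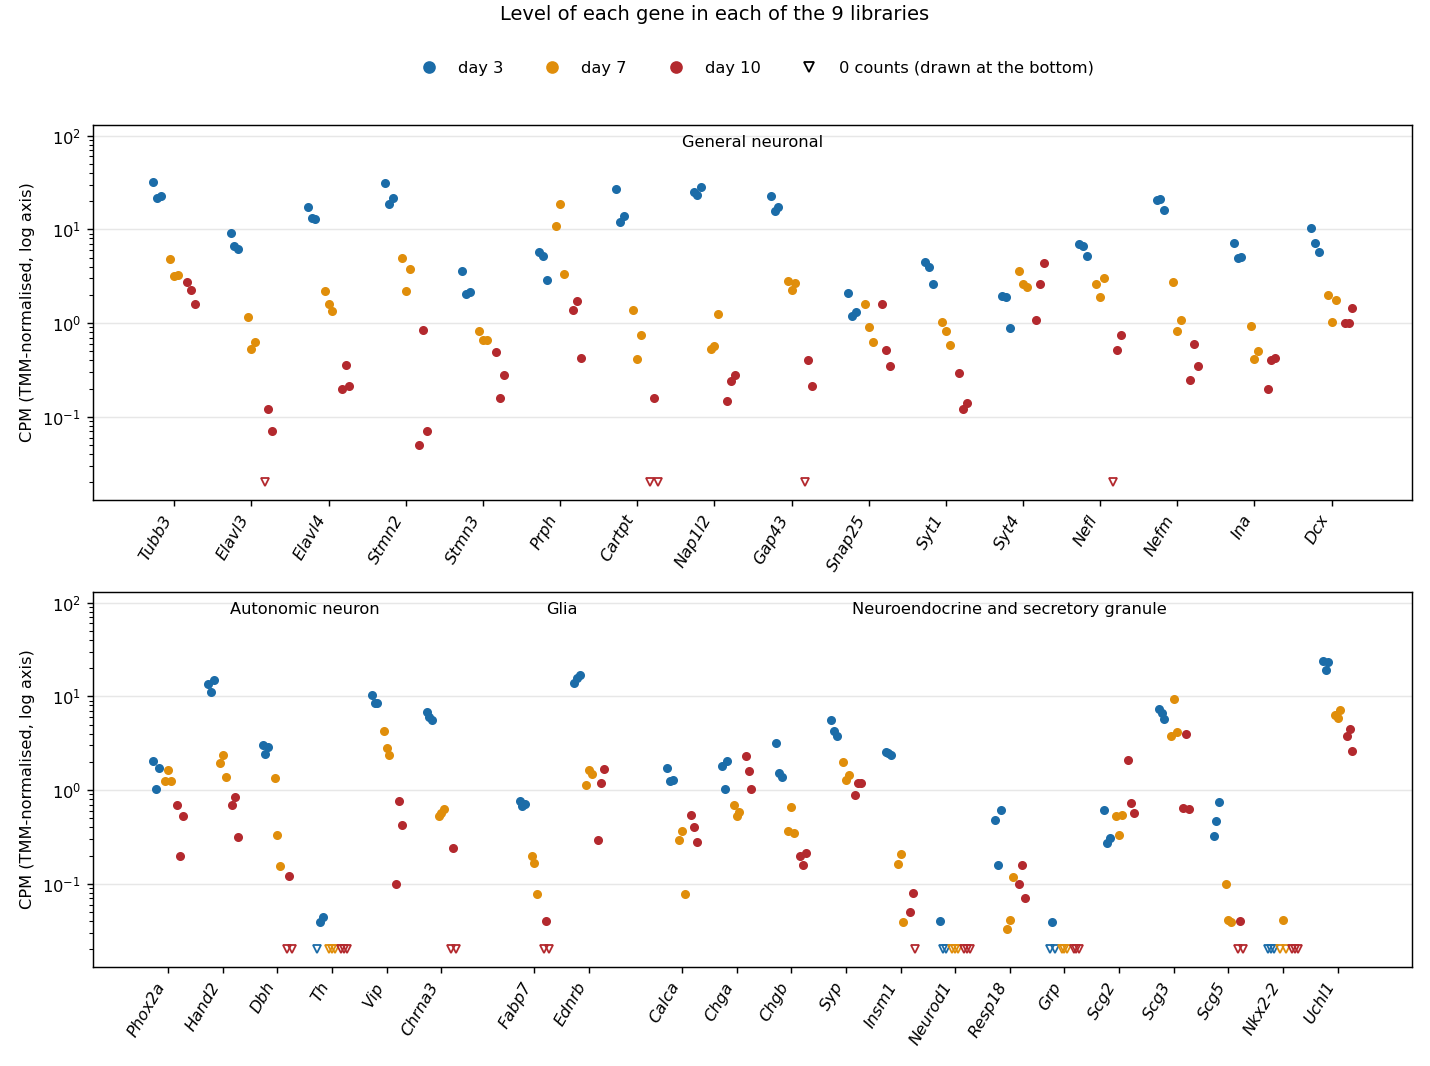
Level of the 37 genes in CPM (log axis) in each library of day 3, day 7 and day 10, grouped by class; each point is 1 library and triangles at the bottom are 0 counts. Most neuronal and autonomic genes step down from day 3 to day 10, while of the tested genes Chga, Scg2, Syt4 and Snap25 overlap between day 3 and day 10.

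Neurofilament genes, which build the axonal skeleton, fell at different rates. Nefm stood at 20.5, 20.8 and 16.2 CPM on day 3, at 2.76, 0.823 and 1.09 CPM on day 7 and at 0.248, 0.60 and 0.353 CPM on day 10, so the days did not overlap. Ina (alpha-internexin) fell from 5.70 to 0.341 CPM between day 3 and day 10 (-4.01 ± 0.36, edgeR adjusted p = 1.21e-05). The gene model of Ina overlaps Nt5c2, and whether counting used strand is not given in the sources used here. Nefl fell from 6.27 ± 0.988 CPM to 2.52 ± 0.583 CPM by day 7, a change of -1.31 ± 0.45 close to the threshold (adjusted p = 0.0417). That call was lost in 10 of 16 alternative settings, among them the omission of any 1 library of day 3 or day 7 (log2 changes of -1.15 to -1.46, adjusted p 0.0598 to 0.124) or of day 10 replicate 2 (-1.31, adjusted p = 0.0509). By day 10 Nefl had 0, 0.52 and 0.741 CPM, all below day 3 (-3.79 ± 0.55, adjusted p = 0.000305).

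Prph, the intermediate filament peripherin of peripheral and autonomic neurons, took another course. Its libraries held 5.78, 5.16 and 2.86 CPM on day 3, then 10.8, 18.6 and 3.32 CPM on day 7, and 1.39, 1.72 and 0.423 CPM on day 10. Day 7 overlapped day 3 through replicate 3, and day 10 lay below both earlier days. The log2 change by day 7 was 1.24 ± 0.58 (edgeR, adjusted p = 0.116), and without day 7 replicate 3 it was 1.67 and called (adjusted p = 0.0207), while without replicate 2 it was 0.62. The later change of -3.23 ± 0.66 from day 7 to day 10 was called (adjusted p = 0.0209) and the steps differed by -4.47 ± 1.00 (adjusted p = 0.0259), which was lost in 7 of 15 alternatives and was -3.23 without day 7 replicate 2 (adjusted p = 0.136). The call of day 10 against day 7 was lost without day 7 replicate 2 (-2.61, adjusted p = 0.075) or day 10 replicate 3 (-2.80, adjusted p = 0.0613). Day 10 against day 3 gave -1.99 ± 0.67 (adjusted p = 0.0283), lost without day 10 replicate 3 (-1.56, adjusted p = 0.122), day 3 replicate 1 (-1.80, adjusted p = 0.0708) or day 3 replicate 2 (-1.90, adjusted p = 0.0599). On day 7, Prph had a mean of 5.45 CPM per kilobase of exon, with libraries from 1.66 to 9.3, which overlapped Uchl1, the next gene in that order (3.55 to 4.35).

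The 3 genes of synaptic vesicle release did not move as one. Syt1, the calcium sensor of fast release, fell from 3.69 to 0.809 and then to 0.186 CPM (day 10 against day 3, -4.33 ± 0.39, edgeR adjusted p = 1.24e-05). Snap25, a SNARE protein of vesicle fusion, had 2.10, 1.18 and 1.32 CPM on day 3 and 1.59, 0.52 and 0.353 CPM on day 10, which overlap (-0.96 ± 0.55, adjusted p = 0.158). Without day 10 replicate 1 its change was -1.81 and called (adjusted p = 0.0119). Syt4, a synaptotagmin of dense-core vesicles, stood at 1.94, 1.89 and 0.881 CPM on day 3 and at 3.58, 2.63 and 2.42 CPM on day 7, above all day 3 libraries, but the change of 0.87 ± 0.46 was not called (adjusted p = 0.156). Its day 10 libraries spread from 1.09 to 4.34 CPM (0.79 ± 0.46 against day 3, adjusted p = 0.168), and without replicate 1 of day 10 the change was 1.15 and called (adjusted p = 0.0221).

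Of the autonomic genes, the 5 that could be tested all fell by day 10, where 27.2% of all genes tested were called lower. Dbh, among these 5, could hardly enter the test except as a falling gene. Hand2, a basic helix-loop-helix factor needed for noradrenergic and enteric neurons and also active in mesenchyme, held 13.5, 11.1 and 14.8 CPM on day 3, 1.94, 2.39 and 1.37 CPM on day 7 and 0.694, 0.84 and 0.317 CPM on day 10. Its days did not overlap (day 10 against day 3, -4.42 ± 0.32, edgeR adjusted p = 3.19e-06). Vip, the peptide of parasympathetic airway neurons, had 10.4, 8.52 and 8.46 CPM on day 3, 4.27, 2.80 and 2.34 CPM on day 7 and 0.0991, 0.76 and 0.423 CPM on day 10. It changed by -1.53 ± 0.34 by day 7 (adjusted p = 0.00586) and by -2.82 ± 0.44 after it (adjusted p = 0.00798).

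Chrna3, the alpha subunit of the ganglionic nicotinic receptor, fell from 6.20 CPM on day 3 to 0.575 CPM on day 7, and its only 6 reads of day 10 were in replicate 2 (day 10 against day 3, -6.16 ± 0.58, edgeR adjusted p = 1.63e-05). Its gene model overlaps that of Chrna5. Dbh, which turns dopamine into noradrenaline, had 2.99, 2.44 and 2.86 CPM on day 3, 1.35, 0.329 and 0.156 CPM on day 7 and 3 reads in all on day 10, each in replicate 2. The ratio of day 3 to day 10 was 67.7, with a 95% counting interval of 22.8 to 331. Its fall by day 7, -2.12 ± 0.62 (adjusted p = 0.0212), was lost without day 3 replicate 1 (-2.06, adjusted p = 0.0572) or day 7 replicate 2 (-1.83, adjusted p = 0.0692), and was -3.49 without day 7 replicate 1. Th, the enzyme that makes the dopamine precursor, had 2 reads on day 3 and 0 on the later days, so it was at the floor throughout.

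Phox2a, a homeodomain factor of autonomic neurons, was the member of this class that held its level to day 7, with 2.02, 1.03 and 1.72 CPM on day 3 and 1.25, 1.65 and 1.25 CPM on day 7 (-0.20 ± 0.36, edgeR adjusted p = 0.684). Day 10 had 0.694, 0.20 and 0.529 CPM, below both earlier days (-1.75 ± 0.41 against day 3, adjusted p = 0.00466). Phox2a overlaps Inppl1, a gene with 102255 counts over the 9 libraries, so reads of the neighbour could not be told from its own.

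The 2 glial genes both fell by day 10, where 27.2% of all genes tested were called lower. Fabp7 could hardly enter the test except as a falling gene. Ednrb, the endothelin receptor of migrating neural crest and its glia, which other cells also carry, stood at 13.9, 15.8 and 16.8 CPM on day 3, at 1.12, 1.65 and 1.48 CPM on day 7 and at 0.297, 1.2 and 1.66 CPM on day 10. Day 7 and day 10 overlapped and both lay below day 3. The first step of -3.46 ± 0.37 (edgeR, adjusted p = 9.61e-05) differed from the second of -0.37 ± 0.42 by 3.09 ± 0.70 (adjusted p = 0.026), a difference lost in 8 of 15 alternative settings, among them the omission of any 1 library of day 3 or day 7 or of day 10 replicate 2 (adjusted p up to 0.12). Fabp7, the brain fatty acid binding protein of radial and early crest-derived glia, had 0.768, 0.67 and 0.705 CPM on day 3, 0.197, 0.165 and 0.078 CPM on day 7 and 1 read on day 10. The ratio of day 3 to day 10 was 52.5, with a 95% counting interval of 9.02 to 2114.

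Among the fate regulators of the neuroendocrine class, Insm1 fell by day 7, and Neurod1 and Nkx2-2 were at the floor throughout. Insm1, a zinc finger repressor of endocrine and neuronal precursors, held 2.55, 2.48 and 2.38 CPM on day 3 and 0.164, 0.206 and 0.039 CPM on day 7 (-4.13 ± 0.45, edgeR adjusted p = 8.11e-05). With 3 reads left on day 10, the day 3 level was 60.6 times that of day 10 (95% counting interval 20.4 to 297). Insm1 reached the level of the filter in day 3 libraries only, so it could hardly enter the test except as a falling gene. Whether its reads came from endocrine or neuronal precursors was not tested. Neurod1, a transcription factor of endocrine cells, had 1 read in all, as had Nkx2-2, an endocrine homeodomain factor, and Grp, the gastrin-releasing peptide of lung neuroendocrine cells. Those 3 genes were at the floor in every library and have no fold.

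Granule cargo and peptides split into falling and retained genes. Calca, which encodes calcitonin and CGRP, the peptide of pulmonary neuroendocrine cells and of sensory neurons, held 1.70, 1.26 and 1.28 CPM on day 3, 0.296, 0.37 and 0.078 CPM on day 7 and 0.545, 0.40 and 0.282 CPM on day 10. Both later days lay below day 3 and overlapped each other (day 10 against day 3, -1.81 ± 0.41, edgeR adjusted p = 0.00365). Its steps differed by 3.16 ± 0.83 (adjusted p = 0.0448), a call lost without any 1 library of day 3 or day 7 or without day 10 replicate 1 or 2 (2.35 to 3.87, adjusted p up to 0.125). Chgb, a granin that helps form dense-core granules, fell from 3.15, 1.54 and 1.37 CPM on day 3 to 0.362, 0.658 and 0.351 CPM on day 7 and 0.198, 0.16 and 0.212 CPM on day 10 (-3.38 ± 0.46 by day 10, adjusted p = 0.000168). Chga, its better known relative, dipped instead: 1.82, 1.03 and 2.03 CPM on day 3, 0.691, 0.535 and 0.585 CPM on day 7 and 2.33, 1.60 and 1.02 CPM on day 10.

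All day 7 libraries of Chga lay below those of both other days, while day 3 and day 10 overlapped. Its fall by day 7 was -1.41 ± 0.38 (edgeR, adjusted p = 0.013), lost only without day 3 replicate 3 (-1.22, adjusted p = 0.0506) among the 16 alternatives. Its day 10 level differed from day 3 by 0.01 ± 0.35 (adjusted p = 0.984). The rise from day 7 to day 10, 1.42 ± 0.38, was close to the threshold (adjusted p = 0.0454), and 9 of 16 alternative settings lost it. Omission of day 3 replicates 1 or 3, of day 10 replicates 1 or 2, or of any 1 day 7 library was enough to end it, with adjusted p up to 0.153 and log2 changes of 1.10 to 1.53. The steps differed by 2.83 ± 0.68 (adjusted p = 0.0308), which was lost without day 3 replicates 1 or 3 or any 1 day 7 library (adjusted p up to 0.117).

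Scg2, the precursor of secretoneurin, was the only one of the 31 called higher on day 10 than on day 3. It had 0.606, 0.276 and 0.308 CPM on day 3, 0.526, 0.329 and 0.546 CPM on day 7 and 2.08, 0.72 and 0.564 CPM on day 10, so replicate 1 of day 10 stood above all others and day 10 overlapped day 3. The change of 1.44 ± 0.55 (edgeR, adjusted p = 0.0451) shrank to 0.68 without that library (adjusted p = 0.211). The call also ended without day 3 replicate 2 (1.24, adjusted p = 0.137), day 3 replicate 3 (1.30, adjusted p = 0.123) or any 1 day 7 library (1.44 to 1.45, adjusted p 0.053 to 0.0609).

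Scg3, a granin-binding protein that sorts cargo into granules, was not called by day 7. Its libraries had 7.32, 6.62 and 5.68 CPM on day 3, 3.75, 9.38 and 4.21 CPM on day 7 and 0.644, 3.92 and 0.635 CPM on day 10. Replicate 2 was the highest library of both later days, and the other day 7 libraries lay below all of day 3. The change by day 7 was -0.19 ± 0.58 (edgeR, adjusted p = 0.824), or -0.72 without day 7 replicate 2 (adjusted p = 0.417), and by day 10 -1.90 ± 0.64 (adjusted p = 0.0283). The latter call ended without day 3 replicate 1 (-1.82, adjusted p = 0.0628), day 3 replicate 2 (-1.90, adjusted p = 0.0537), day 10 replicate 1 (-1.54, adjusted p = 0.0699) or day 10 replicate 3 (-1.47, adjusted p = 0.0985), and the change was -3.34 without day 10 replicate 2.

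Of the granule genes that were not tested, Scg5, the chaperone 7B2 of prohormone convertase 2, had 37 reads on day 3, 5 on day 7 and 1 on day 10, a day 3 to day 10 ratio of 37.4 (95% counting interval 6.3 to 1515). Resp18, a granule protein of endocrine cells, had 30, 5 and 8 reads on the 3 days. Fitted with edgeR without the filter on low counts, both were called lower on day 10 than on day 3 (adjusted p = 0.000577 for Scg5 and 0.0369 for Resp18). For Resp18 these days overlapped, since replicate 2 had 4 reads on each (0.158 and 0.16 CPM), close to the floor. Syp, the vesicle protein synaptophysin, stood at 5.58, 4.30 and 3.75 CPM on day 3, 1.97, 1.28 and 1.44 CPM on day 7 and 0.892, 1.2 and 1.2 CPM on day 10, each day below the last (-2.04 ± 0.25 by day 10, edgeR adjusted p = 9.01e-05). Uchl1, the ubiquitin hydrolase PGP9.5 that marks neurons and neuroendocrine cells, fell from 23.5, 19.1 and 23.4 CPM on day 3 to 6.38, 5.8 and 7.10 CPM on day 7 and 3.82, 4.48 and 2.58 CPM on day 10 (-2.61 ± 0.20 by day 10, adjusted p = 3.92e-06).

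**Figure D3:**
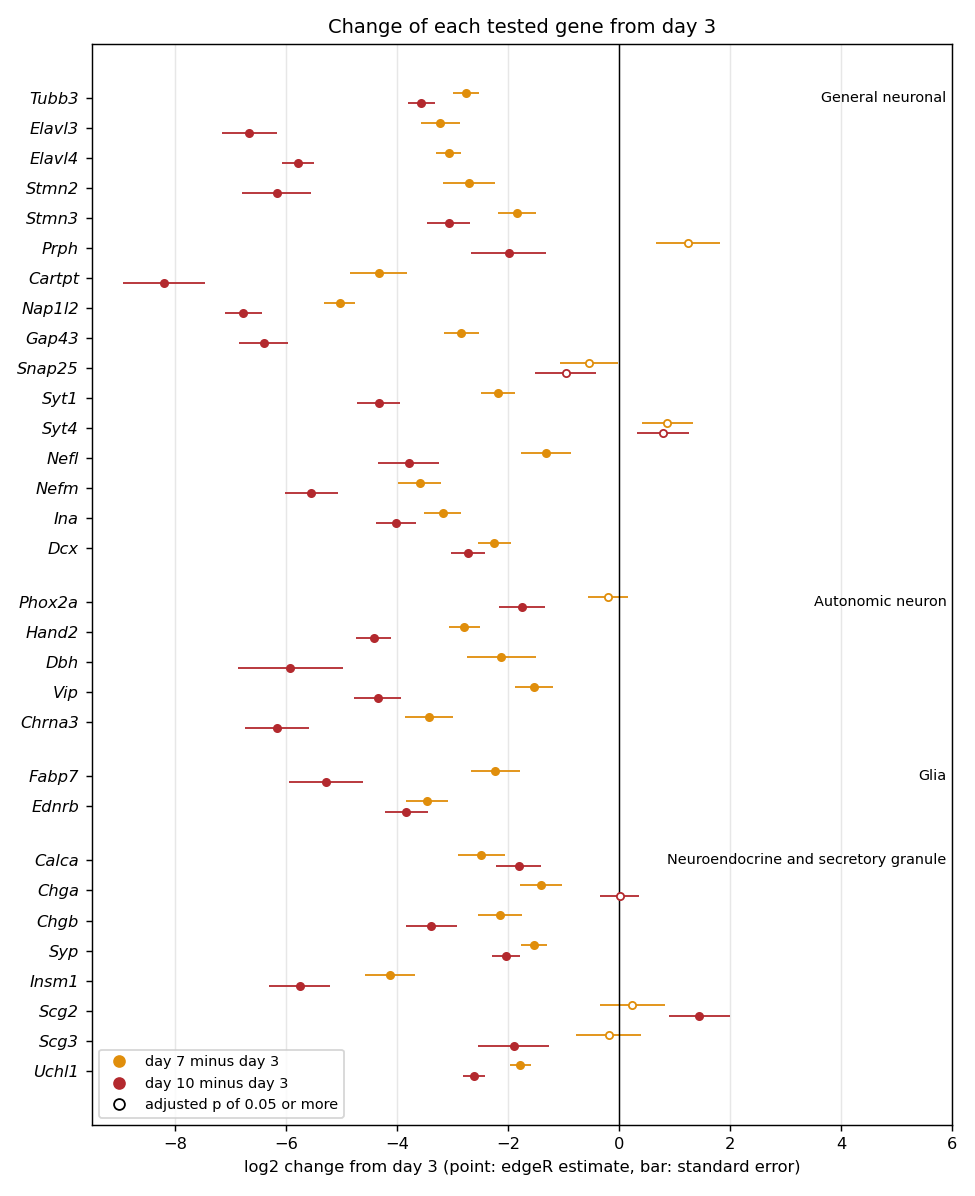
Log2 fold change of each of the 31 tested genes between day 3 and day 7 and between day 3 and day 10, by class, from edgeR; bars are standard errors, and the line at 0 marks no change. Neuronal and autonomic genes spread down to -8.20 (Cartpt), while Chga lies at 0.01 and Scg2 at 1.44 on day 10.

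Promoter windows of the granule genes are shown because Chga, Chgb and Scg2 took 3 different courses although each window holds a cyclic AMP response element, the 8-base motif bound by CREB family factors. RefSeq promoter windows of build GRCm38.p6 were matched for 28 of the 37 genes and run from 250 bases before a transcript start to 50 after it. The motif TGACGTNA, read on both strands, occurred in 5 of the 28 windows (17.9%) and in 833 of 27025 windows of all genes (3.08%). The palindrome TGACGTCA, which TGACGTNA includes, was in 4 of the 28 (14.3%) against 1.88% of all windows. The fifth window with TGACGTNA belongs to Th. The 150 bases that end just before the start are printed 5′ to 3′ on the strand of the gene, with the motif in capitals, for Scg2 (chr1:79440027-79440176, minus strand), Chgb (chr2:132781492-132781641, plus strand), Chga (chr12:102554791-102554940, plus strand) and Cartpt (chr13:99900684-99900833, minus strand).
Scg2: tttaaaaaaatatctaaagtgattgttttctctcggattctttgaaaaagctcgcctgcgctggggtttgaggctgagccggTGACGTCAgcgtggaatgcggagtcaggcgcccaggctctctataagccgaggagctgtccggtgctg
Chgb: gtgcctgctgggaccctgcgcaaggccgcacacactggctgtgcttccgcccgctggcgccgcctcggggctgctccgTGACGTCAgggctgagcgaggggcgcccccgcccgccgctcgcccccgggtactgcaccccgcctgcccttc
Chga: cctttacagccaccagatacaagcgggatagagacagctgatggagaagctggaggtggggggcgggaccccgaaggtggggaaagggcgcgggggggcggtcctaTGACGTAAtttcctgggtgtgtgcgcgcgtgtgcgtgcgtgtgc
Cartpt: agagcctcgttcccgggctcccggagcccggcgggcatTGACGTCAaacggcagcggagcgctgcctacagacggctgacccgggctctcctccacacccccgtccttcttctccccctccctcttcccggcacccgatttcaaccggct

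The first base of the motif lies 68 bases before the start in Scg2, 72 in Chgb, 44 in Chga and 112 in Cartpt. Between day 3 and day 10 these genes changed by 1.44, -3.38, 0.01 and -8.20 on the log2 scale, so windows with the motif belonged to genes at both ends of the range. Such a match describes letters in a window and not a bound site. The E-box CAGCTG, read on both strands, was in 6 of the 28 windows (21.4%) against 16.1% of all windows.

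In day 10 against day 7, 15 of the 31 genes fell and 1 (Chga) rose, where 4.10% of all genes tested were called lower and 4.41% higher. Fewer of these calls held under other settings: Elavl4, Gap43 and Vip were called in all 16 alternatives and the other 13 were not. The count of falling members was 8, 6 and 9 without replicate 1, 2 or 3 of day 7. All 3 day 10 libraries lay below all 3 day 7 libraries for 21 members, where 12.6% of all genes did so, and above them for 2 (Chga and Scg2), where 13.4% did. The second step differed from the first for 6 of the 31 (Calca, Chga, Tubb3, Prph, Nap1l2 and Ednrb), where 8.03% of all genes were called. This comparison was not scaled for the unequal length of the steps. The number called was 1 without day 7 replicate 2, 3 without day 3 replicate 1 or 2, and 2 without day 3 replicate 3 or day 7 replicate 3. Nap1l2 was the 1 member called in every such fit.

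Libraries of 1 day differed in their levels of the tested genes. Replicate 1 was the highest of the day 3 libraries for 26 of the 31 genes, with a median of 0.26 (log2) above the day mean. Replicate 3 was the highest for 4 (Chga, Nap1l2, Hand2 and Ednrb) and replicate 2 for 1 (Nefm). How often each library was the highest over all genes was not counted, so these counts have no background and are no test. On day 10, replicate 2 was the highest for 16 genes and was the only library with reads of all 31, while replicate 1 had 0 counts for 7 of them and replicate 3 for 5. The day 10 reads of Cartpt, Dbh, Chrna3 and Fabp7 were all from replicate 2.

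Per kilobase of exon, Cartpt and Tubb3 led on day 3 with 13.7 CPM per kb each, followed by Uchl1 (13.5), Gap43 (12.2) and Nap1l2 (10.4). The ranges over libraries of neighbours in this order overlapped, so the order among these 5 is not resolved, but the lowest library of Nap1l2 (9.53) lay above the highest of Hand2 (6.30), the next gene. On day 10 Uchl1 led with 2.22 CPM per kb, ahead of Tubb3 (1.17), Syt4 (0.691), Scg3 (0.633) and Chga (0.599), and its lowest library (1.58) lay above the highest of Tubb3 (1.46). Cartpt was then at 0.0418 CPM per kb.

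Other genes of the same cell types were taken from lists of further neuronal, autonomic, glial and neuroendocrine markers. Of 20 tested neuronal genes, 11 fell and 5 rose between day 3 and day 10, with a median of -1.59, where 27.2% of all genes tested were called lower and 29.5% higher. These shares are also the background of the list counts that follow. Those that rose included Map2, a dendritic microtubule protein, from 28.2 ± 4.91 to 114 ± 16.9 CPM (2.01 ± 0.15, edgeR adjusted p = 4.85e-06), and Rbfox3, the splicing factor known as NeuN, from 1.00 ± 0.506 to 8.34 ± 2.29 CPM (3.04 ± 0.39, adjusted p = 0.000119). Vamp2, a part of the vesicle fusion machinery that many cells use, rose by 0.83. Myt1, a zinc finger factor of newborn neurons, had 224 reads on day 3 and 1 on day 10, a ratio of 226 (95% counting interval 40.2 to 8975).

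Of 10 tested autonomic genes, 8 fell and 2 rose (median -2.91). Npy, a peptide of sympathetic neurons, rose from 0.138 to 0.80 CPM (2.48 ± 0.56, edgeR adjusted p = 0.00372). Slc5a7, the choline transporter of cholinergic terminals, fell from 18.5 ± 1.87 to 5.25 ± 2.89 CPM, Slc18a2, the vesicular monoamine transporter, from 8.57 to 4.52 CPM, and Tbx3, a T-box factor also made in mesenchyme, from 116 to 54.8 CPM. Of 7 tested glial and crest genes, 5 fell and 1 rose (median -4.56). Sox10, the factor that defines crest and its glia, went from 3.28 ± 0.402 to 0.0518 ± 0.0617 CPM (-5.8 ± 0.47, adjusted p = 6.33e-06), and Foxd3, an early crest factor, had 107 reads on day 3 and 1 on day 10. Ngfr, the p75 receptor of crest, also made by mesenchymal cells, kept 210 ± 95.3 of 504 ± 46.9 CPM (-1.27 ± 0.28, adjusted p = 0.00394).

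Of 10 further neuroendocrine and granule genes, 6 fell and 1 rose (median -1.31). The gene that rose was Ptprn, the granule membrane protein IA-2, from 3.84 ± 0.70 to 12.1 ± 10.1 CPM (1.65 ± 0.49, edgeR adjusted p = 0.0169), with 23.7 CPM in replicate 1 of day 10. Cplx2, a complexin of regulated secretion, peaked on day 7 at 186 ± 23.2 CPM between 84.9 and 100 CPM. Ncam1, an adhesion molecule of neurons and neuroendocrine cells, was not called in either comparison with day 3.

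Repressors of neuronal genes moved in both directions. Of 9 such genes, 4 fell and 1 rose between day 3 and day 10, with a median of -0.10. Rest, which silences neuronal genes in other cells, went from 78.9 ± 6.35 to 58.4 ± 5.21 CPM (-0.43 ± 0.10, edgeR adjusted p = 0.00393). Its corepressor Rcor2 fell from 76.1 ± 7.20 to 24.4 ± 0.546 CPM (-1.64 ± 0.09, adjusted p = 6.32e-07), and Ptbp1, a splicing repressor of neuronal exons, from 598 ± 19.5 to 363 ± 52.3 CPM. Hes1, the Notch effector that holds back neurogenesis, rose from 21.3 ± 3.73 to 53.6 ± 7.21 CPM (1.33 ± 0.16, adjusted p = 7.24e-05). Id1 and Id3, inhibitors of basic helix-loop-helix factors, were called higher on day 7 (0.46 and 0.45) and stood at -0.10 and -0.05 against day 3 on day 10, not called.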

How the data were processed

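Poly(A) RNA of 9 pneumosphere libraries, 3 on each of days 3, 7 and 10, was sequenced. The authors deposited read counts per gene as whole numbers without normalisation, made, per the submitters' processing notes, with featureCounts on build mm10. No source used here gives the aligner, the annotation or the strand setting. All 9 columns matched 1 sample each. Of 27179 Entrez IDs, 25275 were named from RefSeq, 18 from GENCODE and 1886 stayed unnamed.

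Genes kept by filterByExpr (14940) were fitted over all 9 libraries with edgeR 4.0.16 (R 4.3.3), using TMM factors and the robust quasi-likelihood test, with Benjamini-Hochberg adjustment over all genes. The biological coefficient of variation was 0.146. Replicates of a day differed by more than counting noise (chi-square per degree of freedom of 8.05 or more). The script was tested on simulated data. There the smallest simulated falls first missed the set minimum of recovered genes, and that minimum was then lowered. For genes with 1 to 3 counts on a day, ratios have exact 95% counting intervals. Alternatives were DESeq2 1.42.0, its size factors, library size alone, no filter, only the compared days, a replicate block, and each library left out.

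The members and lists were chosen with earlier results of these data known. The rule names all 37 genes and, of each other list, the 3 highest in mean CPM, the largest called rise and fall between days 3 and 10, and a fixed few (among them Rest, Sox10 and Lhx3). Some genes of these lists are not reported here by name, though the counts over lists include them.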

Additional observations from a re-analysis of the deposited data

How the results depend on the processing

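No member's change reversed its sign past the threshold under any of the 16 alternatives. The falling members numbered 23 to 27 by day 7 and 26 to 29 by day 10, and 22 of 25 calls by day 7, 25 of 28 by day 10, 3 of 16 in day 10 against day 7 and 1 of 6 between the steps held in every alternative fitted. Library size alone moved the median of all genes by -0.09 (log2) at most. Rising members by day 7 numbered 1 instead of 0 with only the compared days or with the replicate block (leave-one-out 0 to 1). Rising members by day 10 numbered 0 instead of 1 with library size alone, with only the compared days, or when day 3 replicate 2 and day 10 replicate 3 were both left out (leave-one-out 0 to 1). In day 10 against day 7, falling members numbered 3 with only the compared days and 7 without those 2 libraries (leave-one-out 6 to 11, against 15), and rising members 0 with library size alone or only the compared days (leave-one-out 0 to 1). Over all genes, 612 fell and 659 rose there; DESeq2 gave 1046 and 1068, only the compared days 113 and 177, library size alone 437 rising genes, and leave-one-out 160 to 792 and 144 to 756. Members whose steps differed numbered 1 to 6 with a library left out. The cause of these shifts was not tested.

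No label says that equal replicate numbers link libraries across days. The column codes of the counts do run in sequence over days 3, 7 and 10 within each replicate number. In the deviations of log2 CPM from the mean of the day, same-numbered libraries correlated at -0.069 to 0.433. That does not settle whether they are paired. They were treated as unpaired, with the replicate block as an alternative. Each day 10 library correlated best with the day 3 library of its own number. Day 7 replicate 3 did so with day 3, and day 10 replicate 2 with day 7. The others did not. Day 7 replicates 1 and 2 correlated best with day 3 replicates 2 and 1 (0.129 and 0.012, own numbers 0.11 and -0.003). Day 10 replicates 1 and 3 correlated best with day 7 replicates 3 and 1 (0.062 and 0.221, own numbers -0.069 and 0.142). Such a link is a hint from the data and the column order, and no label states it. With the replicate block, 24 members fell and 1 (Prph) rose by day 7, 28 fell by day 10, and 14 fell in day 10 against day 7. The block newly called Snap25 by day 10 (-1.06, adjusted p = 0.0218) and Tubb3 in day 10 against day 7 (-0.78, adjusted p = 0.0196; DESeq2 also called it, adjusted p = 0.0273), and lost Nefl by day 7 and Nefm and Chrna3 in day 10 against day 7.

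Depth limits the genes near the floor: Neurod1, Grp, Nkx2-2 and Th cannot be followed, and Insm1, Dbh and Fabp7 at most to day 7. On day 7 Insm1 had 5, 5 and 1 reads and Fabp7 6, 4 and 2, so both were already near the floor. Cartpt, Elavl3 and Chrna3 had 4, 5 and 6 reads in all on day 10, so the size of their falls to that day rests on few reads.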

Other observations

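Markers of neurons outside the lung's own ganglia were also read. Lhx3, a LIM factor of spinal motor neurons and the pituitary, stood at 14.6 ± 2.25 CPM on day 3, 0.289 ± 0.194 CPM on day 7 and 0.047 ± 0.0815 CPM on day 10 (day 10 against day 3, -7.95 ± 0.59, edgeR adjusted p = 4.54e-06). Mnx1, which defines motor neurons, had 0 counts in all 9 libraries, and Olig2, a factor of their precursors, had 1. Of the 4 tested genes of that list 3 fell, the others being Isl1 (6.64 ± 0.409 to 3.56 ± 1.09 CPM) and Nkx6-1 (9.13 ± 1.39 to 5.29 ± 1.35 CPM). Of sensory neuron genes, Prdm12 and Neurog1 had 0 counts. Runx1, which blood and mesenchymal cells also use, rose from 20.7 ± 2.84 to 49.3 ± 5.33 CPM (1.25 ± 0.15, adjusted p = 6.81e-05). The source of these transcripts was not tested.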
